A study of Mus musculus with 8 samples.

Results

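The 8 genes described here carry and read the calcium signal that activates the mouse egg: Itpr1, Itpr2, Atp2a2, Camk2g, Trpm7, Cacna1h, Orai1 and Stim1. They were taken by symbol from a count table of 35976 symbols, and all 8 were present and passed the filter on low counts. The table holds 8 libraries of polyadenylated RNA from mouse full-grown oocytes taken from ovaries, with about 20 oocytes pooled per library. The H2A.Z line has 2 control libraries (genotype given as wild type) and 2 libraries labelled as a double knockout (DKO) of H2A.Z.1 and H2A.Z.2. The Mll2 line has 2 wild-type (WT) and 2 Mll2 knockout (KO) libraries. H2A.Z is a histone that replaces H2A at active promoters, and MLL2 (gene Kmt2b) methylates lysine 4 of histone H3, so the design asks how oocyte transcripts differ when either is removed. The sources used here do not give strain, age, the deleting Cre or its promoter.

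At fertilisation the sperm brings a phospholipase C that produces inositol trisphosphate (IP3), and IP3 opens receptors in the endoplasmic reticulum so that stored calcium is released in repeated waves. Pumps return calcium to the store between waves, channels in the plasma membrane let calcium in to keep the waves going, and the kinase CaMKII reads each wave and releases the egg from its second meiotic arrest. Full-grown oocytes are nearly silent in transcription, so the transcripts they hold are largely stored for maturation and for the fertilised egg.

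In the libraries labelled DKO, transcripts of the IP3 receptors Itpr1 and Itpr2, of the store-filling pump Atp2a2 and of the entry channel Orai1 were higher than in their controls, by 1.34-fold to 1.80-fold. In Mll2 KO, Itpr2 and Atp2a2 were higher, by 1.63-fold and 1.62-fold, while Itpr1 was 1.33-fold lower. Itpr1 was the member whose change differed between the lines by test. Camk2g, Trpm7, Cacna1h and Stim1 did not pass the test in either comparison. These counts, 4 higher and 0 lower of 8 under the DKO label and 2 higher and 1 lower of 8 for Mll2 KO, come from edgeR's quasi-likelihood test at an adjusted p under 0.05. Of all 16847 genes tested, 19.4% were called higher and 11.5% lower under the DKO label, and 14.4% higher and 16.2% lower in Mll2 KO. DESeq2 and limma voom also called 4 higher and 0 lower, and 2 higher and 1 lower. At an unadjusted p under 0.05, edgeR gave 5 higher and 0 lower members under the DKO label. Of all 16847 genes tested, it gave 4395 higher and 2561 lower there. The median log2 fold change of the 8 genes was 0.38 under the DKO label against 0.12 over all genes tested, and 0.17 in Mll2 KO against 0.02.

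The targeted genes check the labels. Kmt2b stood at 41.9 and 42.4 CPM (read counts scaled to a common library total) in Mll2 WT and at 8.73 and 9.28 CPM in Mll2 KO. H2afz, which encodes H2A.Z.1, stood at 23.9 and 30.0 CPM in the H2A.Z controls and at 322 and 317 CPM in the libraries labelled DKO. H2afv, which encodes H2A.Z.2, stood at 107.9 and 107.2 CPM in the controls and at 285 and 294 CPM under the DKO label. Both H2A.Z genes therefore go against a loss of their transcripts, and the counts, summed over a whole gene, do not show which exons were read. Every direction given for this comparison is that of the libraries labelled DKO. H2afz was also higher in Mll2 KO, at 19.4 and 15.0 CPM against 7.04 and 7.09 CPM (edgeR adjusted p 1.21e-05). H2afv was not called there (edgeR adjusted p 0.165). Kmt2b was at 20.4 and 20.6 CPM under the DKO label against 13.7 and 15.4 CPM (edgeR adjusted p 0.018). That call was lost in some alternative fits, among them library size scaling (edgeR adjusted p 0.0872).

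Library totals were between 20309233 and 30087863 counts. The 2 Mll2 KO libraries differed most from each other, with a chi-square per degree of freedom of 36.8 over genes against 4.67 to 12.2 in the other groups. All 12 oocyte markers had counts. Their sum was 26366 to 27657 CPM in the H2A.Z controls, 25538 to 28785 CPM under the DKO label, 20153 to 25201 CPM in Mll2 WT and 18352 to 20148 CPM in Mll2 KO. Of the 12, edgeR called 2 higher and 0 lower under the DKO label and 0 higher and 4 lower (Zp2, Oosp1, Dppa3 and Kit) in Mll2 KO. The 10 granulosa and cumulus markers summed to 94.3 to 96.2 CPM in the H2A.Z controls, 124.6 to 127 CPM under the DKO label, 91.8 to 94.0 CPM in the Mll2 WT pair and 101.7 CPM in both Mll2 KO libraries. The defining granulosa genes Foxl2 and Amh were at or near 0 in every group, at means of at most 0.16 CPM. Fshr, the receptor for follicle-stimulating hormone, had group means of 0.945 CPM in the H2A.Z controls, 18.8 CPM under the DKO label, 0.793 CPM in Mll2 WT and 7.47 CPM in Mll2 KO. Cyp19a1 (aromatase) and the nuclear receptor Nr5a2 made up most of the sum, at 53.1 and 29.8 CPM in the H2A.Z controls, 56.8 and 39.0 CPM under the DKO label, 49.5 and 34.2 CPM in the Mll2 WT pair and 28.9 and 57.4 CPM in Mll2 KO. Of 8 tested granulosa and cumulus markers, edgeR called 2 higher (Fshr and Nr5a2) and 1 lower (Gja1) under the DKO label, and 3 higher (Fshr, Nr5a2 and Gja1) and 2 lower (Cyp19a1 and Kitl) in Mll2 KO. Theca and stroma markers summed to 2.68 to 6.70 CPM, and blood, immune and endothelial markers to 22.1 to 44.5 CPM. Most of the latter was Pecam1, at means of 19.2 CPM in the H2A.Z controls and 28.4 CPM under the DKO label. Its means were 32.7 CPM in Mll2 WT and 37.2 CPM in Mll2 KO. Hbb-bs, Hba-a1 and Cdh5 had 0 counts in every library. Group means of Cd68 and Kdr were at most 2.97 and 1.73 CPM, and those of Ptprc and Lyz2 at most 0.12 and 0.18. Part of these marker sums moved with genotype, and their part in the results was not tested. In bulk RNA, fewer cells of a type and less RNA per cell cannot be told apart. The labels do not say that libraries of a group came from separate animals, so p-values measure the spread between these libraries, which may be technical.

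**Figure D1:**
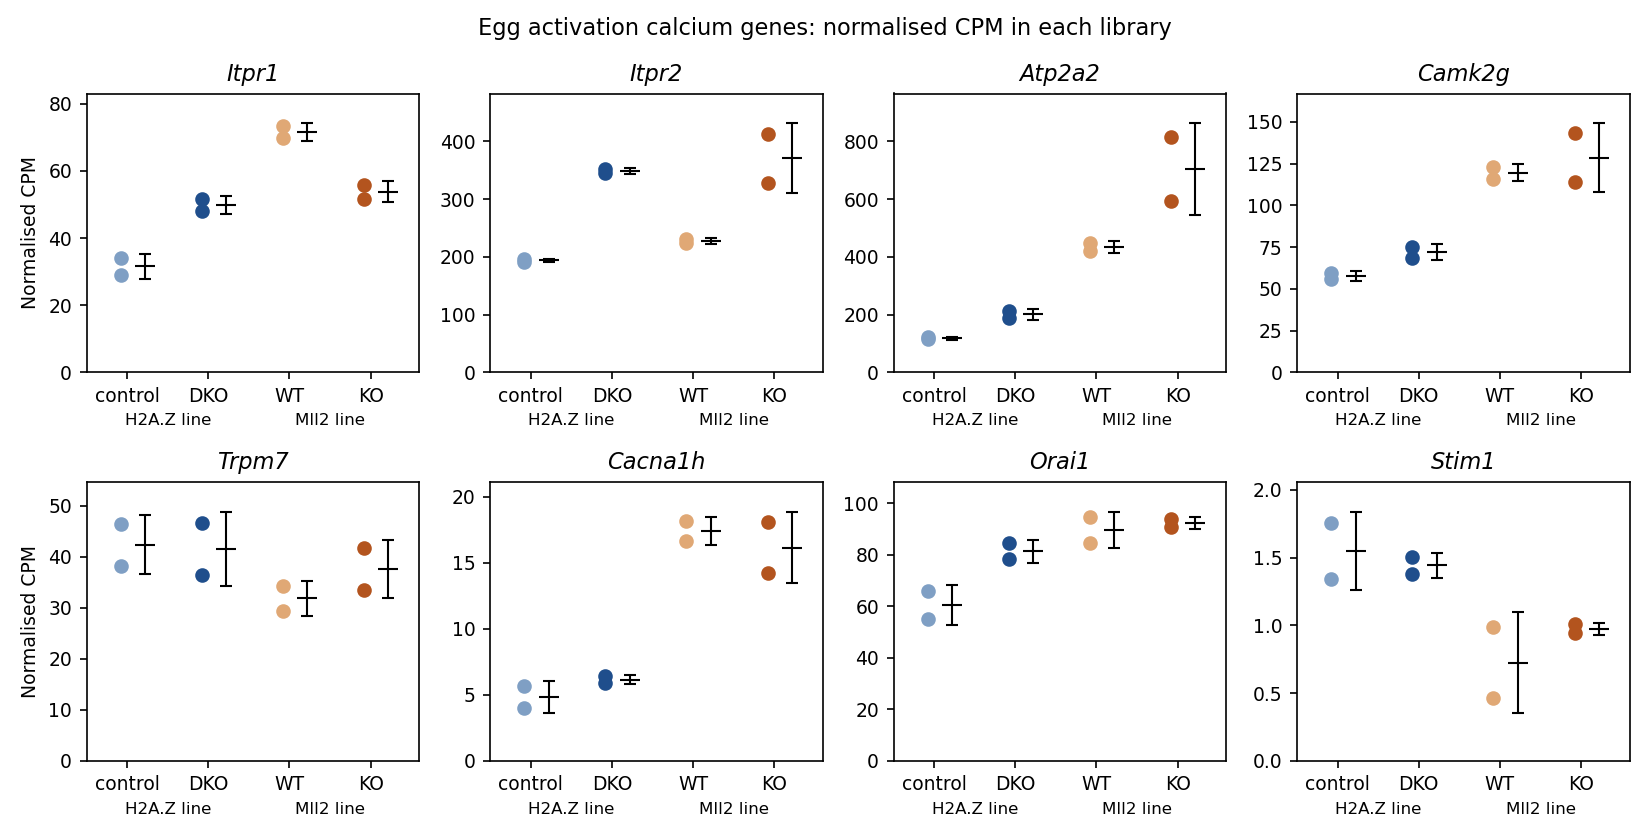
Normalised CPM (y axis, linear, from 0, own scale per gene) of the 8 genes in the 4 groups. Each point is 1 library, and the dash with bars beside it is the group mean ± SD. Itpr2 and Atp2a2 sit above their controls in both mutants, whereas Itpr1 is above its controls under the DKO label (47.9 and 51.7 CPM against 29.0 and 34.2) and below them in Mll2 KO (51.6 and 56.0 CPM against 69.8 and 73.4).

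Itpr1 encodes the IP3 receptor that releases calcium from the store of the mouse egg. The gene spans chromosome 6, 108213096 to 108551109, on the plus strand (GENCODE M21, mm10). It stood at 34.2 and 29.0 CPM in the H2A.Z controls and at 51.7 and 47.9 CPM in the libraries labelled DKO, and at 69.8 and 73.4 CPM in the Mll2 WT pair and 51.6 and 56.0 CPM in Mll2 KO. The groups of each line did not overlap, and the mutant libraries were high in the H2A.Z line and low in the Mll2 line. The log2 fold change was 0.66 ± 0.12 (SE) under the DKO label, 1.58-fold, with an edgeR adjusted p of 0.00106. In Mll2 KO it was -0.41 ± 0.12, with an edgeR adjusted p of 0.0171. That call was lost with scaling by library size alone (-0.29, adjusted p 0.0796), with each line fitted alone (-0.41, adjusted p 0.0554), without Mll2 WT replicate 1 (-0.45, adjusted p 0.0599) and without Mll2 WT replicate 2 (-0.39, adjusted p 0.117), all by edgeR.

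Itpr2 encodes a second IP3 receptor, and it lies on the same chromosome (6, 146108299 to 146502223, minus strand). It stood at 196.0 and 191.8 CPM in the H2A.Z controls and at 345 and 352 CPM in the libraries labelled DKO. In the Mll2 line it stood at 223 and 230.5 CPM in WT and at 328 and 413 CPM in KO. Both mutants were above their controls without overlap. The log2 fold changes were 0.85 ± 0.11 (edgeR adjusted p 5.41e-05) and 0.71 ± 0.11 (edgeR adjusted p 0.000211). Neither call was lost in any of the 15 alternative fits, and the change in Mll2 KO ran from 0.49 to 0.88 over them.

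Itpr1 and Itpr2 both rose under the DKO label, and in Mll2 KO they moved in opposite directions. Their ratio within a library does not depend on scaling between libraries. Per kilobase of the longest coding transcript (9870 nt and 11679 nt), Itpr1 over Itpr2 was 0.206 and 0.179 in the H2A.Z controls and 0.177 and 0.161 under the DKO label. In Mll2 WT the ratio was 0.370 and 0.377, and in Mll2 KO 0.186 and 0.160. Both Mll2 WT libraries stood above the other 6.

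Atp2a2 encodes SERCA2, the pump that refills the endoplasmic reticulum with calcium (chromosome 5, 122453513 to 122502225, minus strand). It stood at 122.3 and 114.7 CPM in the H2A.Z controls and at 213.7 and 188.4 CPM in the libraries labelled DKO. In the Mll2 line it stood at 420 and 448 CPM in WT and at 592 and 816 CPM in KO. Both mutant groups were above their own controls without overlap, and the 2 Mll2 KO libraries were far apart from each other. Its log2 fold changes were 0.76 ± 0.13 (edgeR adjusted p 0.000573) and 0.70 ± 0.13 (edgeR adjusted p 0.000979). Both were called in all 15 alternative fits. Without Mll2 KO replicate 2 the second was 0.41, the lowest of a range up to 0.92.

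Camk2g encodes the CaMKII isoform through which the mouse egg reads the calcium waves (chromosome 14, 20734875 to 20794088, minus strand). It stood at 59.8 and 55.6 CPM in the H2A.Z controls, 75.3 and 68.7 CPM under the DKO label, 123.2 and 115.8 CPM in the Mll2 WT pair and 113.8 and 143 CPM in Mll2 KO. The groups of the H2A.Z line did not overlap, and those of the Mll2 line did. Its log2 fold changes were 0.32 ± 0.12 (edgeR adjusted p 0.0576) and 0.10 ± 0.12 (edgeR adjusted p 0.544). The first passed with no filter on low counts (edgeR adjusted p 0.0364), and the second without Mll2 KO replicate 1 (0.27, edgeR adjusted p 0.029).

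Of the plasma membrane genes, Trpm7 and Cacna1h encode the channel-kinase TRPM7 and the T-type channel CaV3.2, routes of calcium entry in mouse oocytes and eggs. Trpm7 (chromosome 2, 126791565 to 126876230, minus strand) stood at 46.4 and 38.3 CPM in the H2A.Z controls, 36.5 and 46.7 CPM under the DKO label, 29.4 and 34.3 CPM in the Mll2 WT pair and 33.5 and 41.6 CPM in Mll2 KO. Its groups overlapped in both lines. The log2 fold changes were -0.03 ± 0.16 (edgeR adjusted p 0.919) and 0.24 ± 0.16 (edgeR adjusted p 0.266), and the second passed without Mll2 KO replicate 1 (0.40, edgeR adjusted p 0.0414). Cacna1h (chromosome 17, 25374285 to 25433783, minus strand) was low in the H2A.Z line, at 3.98 and 5.66 CPM in the control pair, and 6.39 and 5.89 CPM under the DKO label. It stood at 18.1 and 16.7 CPM in Mll2 WT and at 14.2 and 18.0 CPM in Mll2 KO. The Mll2 groups overlapped, while the H2A.Z groups were close without overlapping. Fold changes on the log2 scale were 0.34 ± 0.22 (edgeR adjusted p 0.259) and -0.11 ± 0.19 (edgeR adjusted p 0.697).

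Orai1 and Stim1 encode the pore and the store sensor of store-operated calcium entry, in which an emptied endoplasmic reticulum opens channels in the plasma membrane. Orai1 (chromosome 5, 123015074 to 123030456, plus strand) stood at 55.0 and 66.0 CPM in the H2A.Z controls and at 78.3 and 84.5 CPM in the libraries labelled DKO, without overlap. In the Mll2 line it stood at 94.6 and 84.7 CPM in WT and at 90.9 and 94.0 CPM in KO, with overlap. The log2 fold change under the DKO label was 0.43 ± 0.12, with an edgeR adjusted p of 0.0123. This was the least stable of the 4 rises: edgeR's adjusted p was 0.09 with scaling by library size, 0.176 without H2A.Z control replicate 1, 0.109 without H2A.Z DKO replicate 2 and 0.0997 without Mll2 WT replicate 2. In Mll2 KO it was 0.04 ± 0.12 (edgeR adjusted p 0.804).

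The start of Orai1 meets that of Gm2479, a long noncoding RNA gene on the opposite strand (chromosome 5, 123007299 to 123015080), which was chosen after its values were seen. The genes share 7 exonic bases, 0.305% of the exonic bases of Orai1. Strand is not marked by this kind of library, so reads in those bases cannot be assigned. Exons of Itpr1 (with Gm44040 and Gm44101), Atp2a2 (with Gm43361) and Cacna1h (with Tpsg1) also overlap genes on the opposite strand. Tpsg1 had 0 counts in every library. The others were not in the count table, so their part could not be checked. Gm2479 stood at 233.6 and 228.8 CPM in the H2A.Z controls, 302 and 288 CPM under the DKO label, 144.3 and 136.2 CPM in the Mll2 WT pair and 175.2 and 153.3 CPM in Mll2 KO. Its libraries did not overlap in either line. The log2 fold changes were 0.35 ± 0.10 (edgeR adjusted p 0.0155, between 0.00896 and 0.127 over 15 alternatives) and 0.23 ± 0.10 (edgeR adjusted p 0.102, between 0.0148 and 0.41). The first was lost with library size scaling and without any 1 library of the H2A.Z line or Mll2 WT replicate 2.

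Stim1 (chromosome 7, 102267806 to 102437319, plus strand) was close to the lower limit of these data, with 14 to 44 counts per library. It stood at 1.34 and 1.75 CPM in the H2A.Z controls, 1.51 and 1.38 CPM under the DKO label, 0.463 and 0.989 CPM in the Mll2 WT pair and 0.944 and 1.01 CPM in Mll2 KO. Its groups overlapped in both lines. Fold changes on the log2 scale were -0.11 ± 0.41 (edgeR adjusted p 0.866) and 0.42 ± 0.43 (edgeR adjusted p 0.485), and SEs of this size leave a change as large as those of Itpr2 and Atp2a2 undetectable at this depth.

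**Figure D2:**
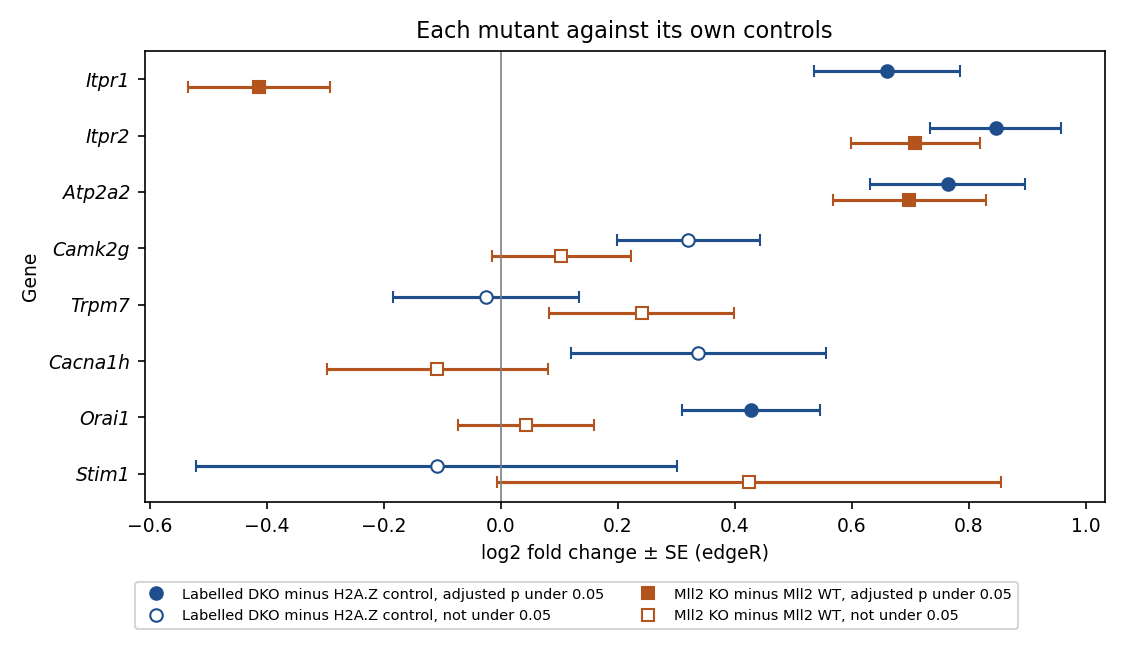
Log2 fold change (x axis) of each gene (y axis) in the libraries labelled DKO and in Mll2 KO, each against its own controls. Bars are the SE derived from edgeR's fold change and F statistic. Itpr2 (0.85 and 0.71) and Atp2a2 (0.76 and 0.70) lie to the right of 0 in both comparisons, and Itpr1 lies on opposite sides (0.66 and -0.41).

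Of all genes tested, 70.3% had libraries that did not overlap between the H2A.Z control and the DKO label, and 64.2% between Mll2 WT and KO, against 6 of 8 and 3 of 8 members. The scaling between libraries bears on the small changes. The median of all genes was 0.12 (log2) under the DKO label, where 62.9% of calls were higher. When libraries were scaled by total counts alone it was 0.00, with 45.5% of calls higher. With RLE scaling it was 0.08, with 56.9% of calls higher, and with each line fitted alone 0.01, with 48.6%. It was also 0.00 without Mll2 WT replicate 2 or without either Mll2 KO library, and 0.11 to 0.15 without any other 1 library. In Mll2 KO, scaling by total counts alone moved the median from 0.02 to 0.14. The share of calls that were higher moved from 47.1% to 62.9%. Relative to the median of all genes, the changes under the DKO label were 0.72 for Itpr2, 0.64 for Atp2a2, 0.54 for Itpr1 and 0.30 for Orai1, and in Mll2 KO 0.69 for Itpr2, 0.68 for Atp2a2 and -0.43 for Itpr1.

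Whether a change differed between the lines was tested as the difference of the 2 effects. Of the 8 genes, 1 was called higher and 0 lower in that contrast, against 12.9% and 6.68% of all genes. DESeq2 and limma voom gave the same counts, and at an unadjusted p under 0.05 edgeR gave 2 higher and 0 lower. Of all 16847 genes tested, edgeR gave 3569 higher and 2021 lower at that unadjusted p. The called gene was Itpr1, with a difference of 1.07 ± 0.17 on the log2 scale (edgeR adjusted p 0.000532), and it was called in all 14 alternative fits, which gave 0.83 to 1.20. For Itpr2 the difference was 0.14 ± 0.16 (edgeR adjusted p 0.586), for Atp2a2 0.07 ± 0.19 (edgeR adjusted p 0.847) and for Orai1 0.38 ± 0.17 (edgeR adjusted p 0.117). The contrast for Trpm7 was -0.27 ± 0.22 (edgeR adjusted p 0.442), and without Mll2 KO replicate 1 it passed, at -0.54 (edgeR adjusted p 0.0461).

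The control groups also differed in these genes. The Mll2 WT mean was 3.66 times the H2A.Z control mean for Atp2a2, 3.61 times for Cacna1h, 2.27 times for Itpr1, 2.07 times for Camk2g, 1.48 times for Orai1 and 1.17 times for Itpr2. For Trpm7 and Stim1 it was 0.751 and 0.469 times. The libraries of the 2 control groups did not overlap for 8 of 8 members, as for 75.2% of all genes tested, and line and any batch cannot be told apart.

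Levels of different genes were compared as CPM per kilobase of the longest coding transcript. In the H2A.Z controls Orai1 (32.3 CPM per kb) and Atp2a2 (26.4) were highest, followed by Itpr2 (16.6), Camk2g (15.6), Trpm7 (5.96), Itpr1 (3.20), Cacna1h (0.586) and Stim1 (0.355), with no overlap between neighbours. Under the DKO label Atp2a2 (44.8 CPM per kb) and Orai1 (43.4) overlapped at the top, as did Trpm7 (5.85) and Itpr1 (5.05). In Mll2 WT Atp2a2 was first at 96.8 CPM per kb, Orai1 second at 47.8 and Camk2g next at 32.3, ahead of Itpr2 at 19.4, with no overlap between any neighbours. In Mll2 KO Atp2a2 reached 157.0 CPM per kb, Camk2g (34.7) and Itpr2 (31.8) overlapped, and so did Itpr1 (5.45) and Trpm7 (5.29). Cacna1h and Stim1 were last in all 4 groups.

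The share of each gene in its family's transcripts, counted per kilobase, ranged from nearly all to a few percent. Atp2a2 was at least 99.9% of the SERCA pumps in every library, and Camk2g was 98.8% to 99.6% of the CaMKII genes. Orai1 was 91.8% to 98.8% of the ORAI channels, lowest in the 2 Mll2 KO libraries (92.9% and 91.8%), where Orai3 was higher. Orai3 was also higher under the DKO label, where Orai1 was 97.4% and 97.7% against 98.7% and 98.8% in the controls. Trpm7 was 82.9% to 94.1% of the pair it forms with Trpm6, and Cacna1h 67.3% to 84.8% of the T-type channels. The share of Cacna1h was lowest under the DKO label, at 67.9% and 67.3% against 77.1% and 81.4% in the controls. Its low-level paralogs Cacna1g and Cacna1i were called higher there (edgeR adjusted p 0.0192 and 0.0411). Among IP3 receptors Itpr2 was the larger share, at 72.2% to 85.8%, with Itpr1 at 13.7% to 27.2% and Itpr3 at 0.283% to 0.704%. Stim1 was the minor store sensor, at 1.09% to 3.97%, and Stim2 made up 96.0% to 98.9%.

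**Figure D3:**
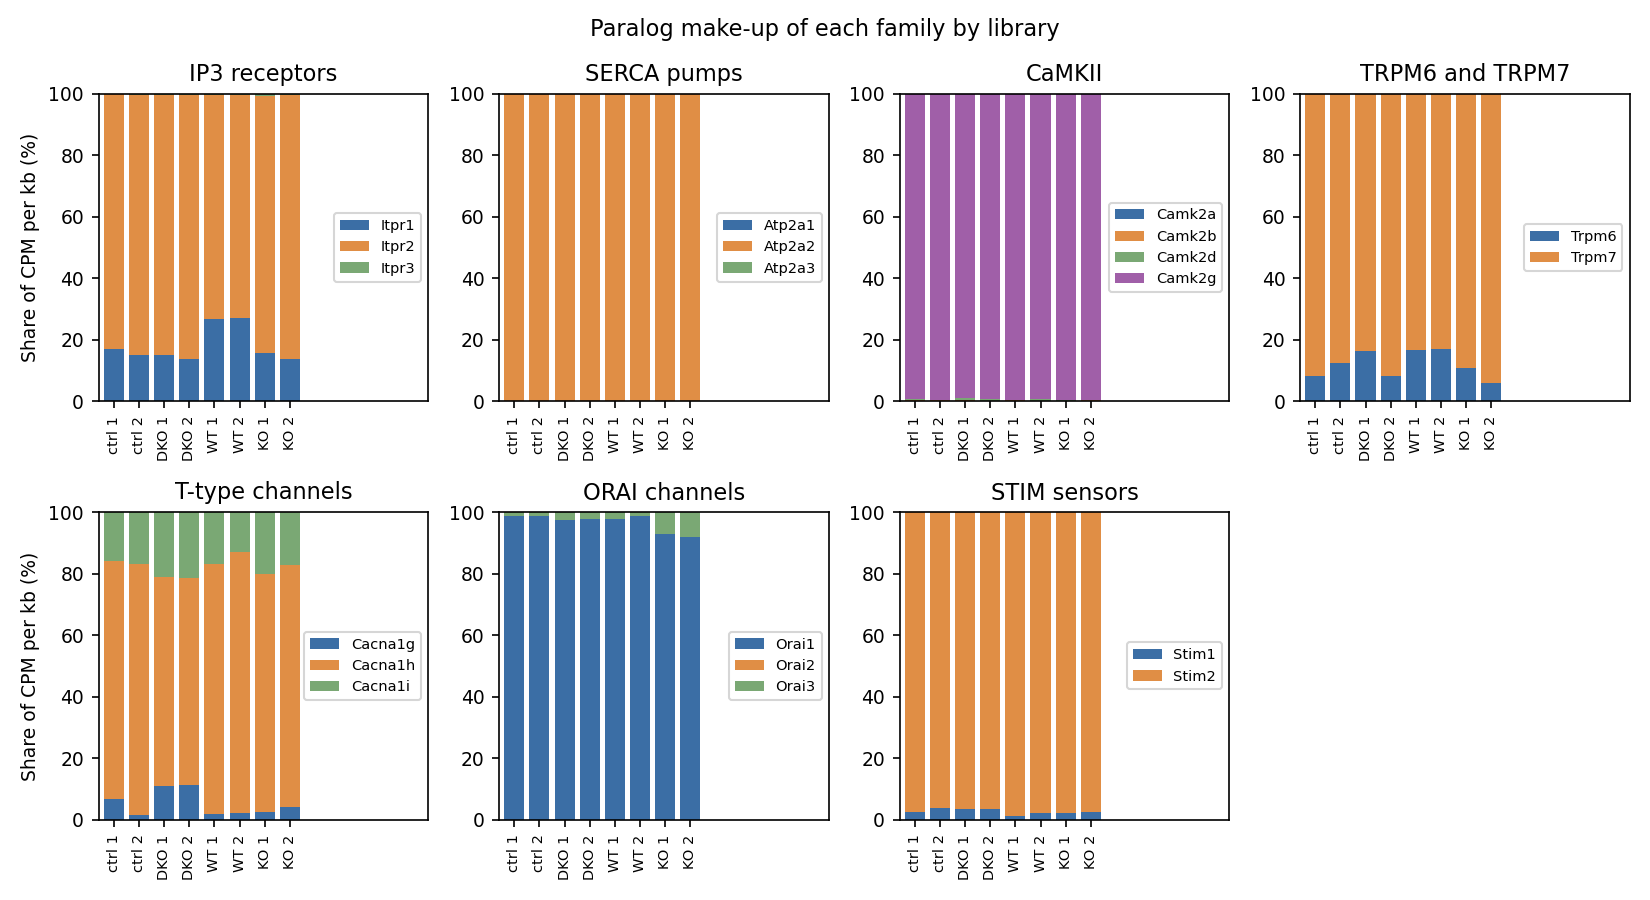
Share of CPM per kb (y axis, percent) held by each paralog of 7 families in each of the 8 libraries (x axis). Itpr1 falls from 26.8% and 27.2% of the IP3 receptors in Mll2 WT to 15.6% and 13.7% in Mll2 KO, and Stim2 outweighs Stim1 in every library.

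Because the proteins targeted in both lines act at promoters, the sequence before the start of 3 members is shown: Itpr2, which was higher in both mutants, Trpm7, whose groups overlapped in both, and Orai1, whose window lies inside the span of Gm2479. The sequences are the 250 bases before the RefSeq start on GRCm38.p6, 5′ to 3′ on the strand of the gene, with every CG in capitals. They are chr6:146502224-146502473 (minus strand) for Itpr2, chr2:126876262-126876511 (minus strand) for Trpm7 and chr5:123014824-123015073 (plus strand) for Orai1. Of the 8 members, 4 matched a RefSeq promoter, the other being Stim1.
Itpr2: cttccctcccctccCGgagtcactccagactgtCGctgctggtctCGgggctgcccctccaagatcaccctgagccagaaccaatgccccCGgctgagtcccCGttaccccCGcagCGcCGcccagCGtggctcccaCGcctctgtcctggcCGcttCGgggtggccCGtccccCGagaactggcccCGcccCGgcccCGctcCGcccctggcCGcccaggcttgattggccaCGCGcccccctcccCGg
Trpm7: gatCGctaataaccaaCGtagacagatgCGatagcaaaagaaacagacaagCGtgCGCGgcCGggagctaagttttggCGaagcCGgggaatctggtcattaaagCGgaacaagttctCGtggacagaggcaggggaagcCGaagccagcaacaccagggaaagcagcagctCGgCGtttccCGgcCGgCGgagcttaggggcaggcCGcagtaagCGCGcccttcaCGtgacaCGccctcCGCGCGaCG
Orai1: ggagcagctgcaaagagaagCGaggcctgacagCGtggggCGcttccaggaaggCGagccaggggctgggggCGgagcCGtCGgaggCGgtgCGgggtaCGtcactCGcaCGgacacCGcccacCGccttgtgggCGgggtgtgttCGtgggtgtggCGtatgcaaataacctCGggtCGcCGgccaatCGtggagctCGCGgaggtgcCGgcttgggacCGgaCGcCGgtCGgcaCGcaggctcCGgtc
CG was the motif searched, which reads the same on both strands. It occurs 22 times before Itpr2, 26 times before Trpm7, 30 times before Orai1 and 31 times before Stim1. At least 1 CG is present in 92.1% of the 32851 promoters of this length, whose median is 6. At least as many CGs as in Itpr2 were present in 14.8% of them, and the shares were 9.59% for Trpm7, 5.94% for Orai1 and 5.19% for Stim1. All 4 windows thus hold more CGs than the median promoter. G and C made up 74.4% of the window of Itpr2, 60.4% of Trpm7, 70.8% of Orai1 and 78.4% of Stim1. The median was 52.4%. Relative to the CGs expected from that content, the values were 0.70, 1.15, 1.00 and 0.81, against a median of 0.37. At least these values were reached by 26.8%, 1.17%, 5.70% and 18.3% of promoters. Itpr1 and Atp2a2, which also changed, had no matched window, and a link between CG and the changes was not tested.

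The members were set among 94 other genes of 6 lists covering the wider calcium pathway, of which 74 could be tested. Under the DKO label edgeR called 16 higher and 5 lower, with a median log2 fold change of 0.09. In Mll2 KO 9 were higher and 10 lower, with a median of -0.02. Of all genes tested, 19.4% were higher and 11.5% lower under the DKO label, and 14.4% and 16.2% in Mll2 KO. The counts of each list below stand against these same shares. At an unadjusted p under 0.05, edgeR gave 4395 higher and 2561 lower of 16847 genes under the DKO label. In Mll2 KO it gave 3428 and 3574. DESeq2 called 13 higher and 5 lower of the 74 under the DKO label, and limma voom 15 and 4. In Mll2 KO they called 8 and 9, and 10 and 10. The 16 fell without H2A.Z control replicate 2, and the 9 without Mll2 WT replicate 2. In both fits the higher calls over all genes tested fell as well. The counts of the wider genes that moved by over 1.5 times with a library left out are given with the processing alternatives.

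**Figure D4:**
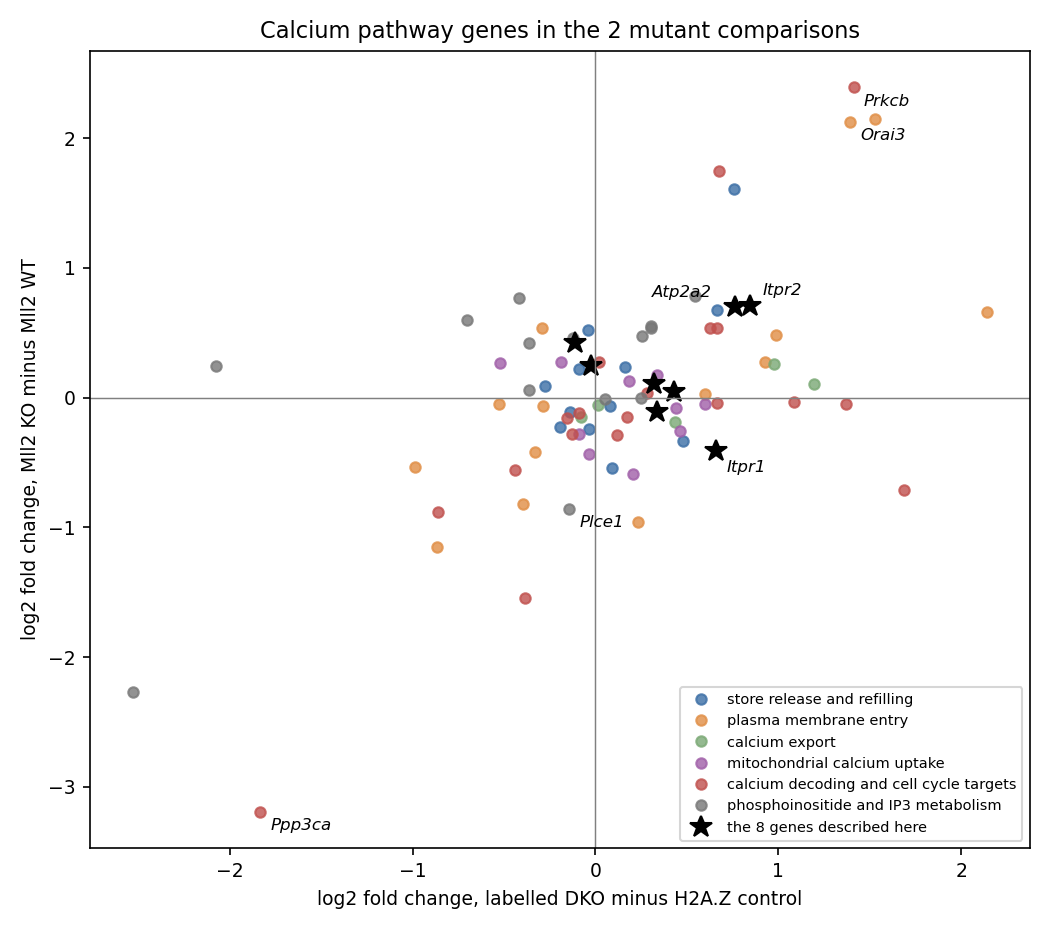
Log2 fold change of the tested pathway genes and the 8 members under the DKO label (x axis) and in Mll2 KO (y axis). Each point is 1 gene; Ppp3ca is far down on both axes (-1.83 and -3.19), and Itpr2 and Atp2a2 lie up and to the right.

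Among the genes of store release and refilling, 0 were higher and 1 lower of 12 tested under the DKO label, and 2 were higher and 1 lower in Mll2 KO. For the former, 1 was higher and 1 lower at an unadjusted p under 0.05, and DESeq2 and limma voom called 0 higher and 1 lower. The lower gene was Saraf, a brake on store-operated entry (-0.28 ± 0.10, edgeR adjusted p 0.0399), a call lost without any 1 library of the H2A.Z line or Mll2 WT replicate 1 (edgeR adjusted p 0.069 to 0.214) and with no filter on low counts (0.0718). In Mll2 KO the calcium-binding chaperone Calr stood at 407 and 460 CPM against 315 and 288 CPM (0.52 ± 0.11, edgeR adjusted p 0.00175). Its membrane-bound relative Canx stood at 304 and 295 CPM against 436 and 438 CPM (-0.55 ± 0.10, edgeR adjusted p 0.000815). These chaperones of one compartment moved in opposite directions, without overlap between the groups.

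Of 14 tested genes of plasma membrane entry, 4 were higher and 1 lower under the DKO label by edgeR, and 2 and 2 in Mll2 KO. Under the DKO label DESeq2 called 2 higher and 1 lower, and limma voom 3 and 0. In Mll2 KO DESeq2 called 2 higher and 2 lower, and limma voom 3 and 2. Orai3, a paralog of Orai1, was at 7.92 and 9.58 CPM in Mll2 KO against 2.68 and 1.32 CPM in WT (2.13 ± 0.29, edgeR adjusted p 6.52e-05). Under the DKO label Orai3 was also higher, at 2.26 and 2.23 CPM against 0.827 and 0.877 CPM (1.39 ± 0.37, edgeR adjusted p 0.00974). Its difference between the effects was not called (edgeR adjusted p 0.303). Cacna2d1, an auxiliary channel subunit, was lower in Mll2 KO (-1.16 ± 0.30, edgeR adjusted p 0.00871) except without Mll2 WT replicate 2 (edgeR adjusted p 0.12). It was also lower under the DKO label (-0.86 ± 0.30, edgeR adjusted p 0.0396), and that call was lost without H2A.Z control replicate 1 (0.357), H2A.Z DKO replicate 1 (0.247) or H2A.Z DKO replicate 2 (0.0801), and with limma voom (0.0643). Cacna1d, an L-type channel, was at 12.0 and 13.4 CPM under the DKO label against 8.63 and 8.17 CPM (0.60 ± 0.20, edgeR adjusted p 0.0309). The call for Cacna1d was lost without any 1 library of the H2A.Z line or Mll2 WT replicate 2 (edgeR adjusted p 0.0784 to 0.176), and with RLE scaling (0.0508), library size scaling (0.0942) or DESeq2 (0.0535).

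For calcium export, 2 of 5 tested genes were higher and 0 lower under the DKO label, also at an unadjusted p under 0.05. In Mll2 KO 0 were called in either direction by edgeR, DESeq2 and limma voom, and 0 had an unadjusted p under 0.05. The plasma membrane pump Atp2b4 was at 8.03 and 9.78 CPM under the DKO label against 5.27 and 3.83 CPM (0.98 ± 0.24, edgeR adjusted p 0.0059). It was lost without H2A.Z control replicate 2 (0.1) or H2A.Z DKO replicate 2 (0.0644).

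For mitochondrial uptake, 4 of 10 tested genes were higher and 1 lower under the DKO label by edgeR. There DESeq2 called 3 higher and 1 lower, and limma voom 4 and 1. In Mll2 KO 0 were higher and 2 lower by edgeR, DESeq2 and limma voom, and also at an unadjusted p under 0.05. Micu2, a gatekeeper of the mitochondrial uniporter, was at 54.5 CPM in both libraries labelled DKO against 33.8 and 38.0 CPM (0.60 ± 0.13, edgeR adjusted p 0.0025). Mcu, its pore, rose by 0.44 ± 0.11 (edgeR adjusted p 0.0084), a call lost without H2A.Z control replicate 2 (0.127), H2A.Z DKO replicate 2 (0.0686) or Mll2 WT replicate 2 (0.0773). In Mll2 KO the outer membrane channel Vdac3 was at 213 and 162 CPM against 272 and 294 CPM (-0.59 ± 0.12, edgeR adjusted p 0.00198). Mcur1, a regulator of the uniporter, fell by 0.43 ± 0.10 on the log2 scale (edgeR adjusted p 0.00342).

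Of 19 tested genes of calcium decoding, 5 were higher and 1 lower under the DKO label by edgeR, and 3 and 3 in Mll2 KO. In Mll2 KO DESeq2 called 2 higher and 2 lower, and limma voom 3 and 3. Ppp3ca, a catalytic subunit of the calcium-activated phosphatase calcineurin, was lower in both mutants. It stood at 15.6 and 15.7 CPM in the H2A.Z controls and 3.86 and 4.94 CPM under the DKO label (-1.83 ± 0.20, edgeR adjusted p 8e-06), and at 16.8 and 18.4 CPM in the Mll2 WT pair and 1.75 and 2.08 CPM in Mll2 KO (-3.19 ± 0.21, edgeR adjusted p 2.56e-08). The fall was larger in Mll2 KO, by 1.36 ± 0.29 (edgeR adjusted p 0.00379). Prkcb, a calcium-dependent protein kinase C, was at 12.6 and 14.4 CPM in Mll2 KO against 3.07 and 2.05 CPM (2.39 ± 0.28, edgeR adjusted p 1.4e-05).

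Of 14 tested genes that make or break down IP3 and its lipid precursor, 1 was higher and 1 lower under the DKO label, and 2 were higher and 2 lower in Mll2 KO. Plcg2, a phospholipase C, was at 27.4 and 26.6 CPM under the DKO label against 19.4 and 17.7 CPM (0.54 ± 0.14, edgeR adjusted p 0.00788), and at 46.2 and 54.8 CPM in Mll2 KO against 29.5 and 29.3 CPM (0.78 ± 0.13, edgeR adjusted p 0.000447). The first call was lost without H2A.Z control replicate 2 (0.0978), H2A.Z DKO replicate 1 (0.0607) or Mll2 WT replicate 2 (0.0618). Plce1, the phospholipase C epsilon gene, was at 142.5 and 147.5 CPM in Mll2 KO against 260 and 264 CPM (-0.86 ± 0.09, edgeR adjusted p 7.88e-06).

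The genes whose pattern over the 8 libraries was most like each member's were ranked by Pearson's r of log2 CPM among 7308 genes, as a description. The points share the difference between the lines, which most of these genes carry. The top gene was Rasa2 for Itpr1 (r = 0.987), Ints3 for Atp2a2 (0.999) and Ss18 for Camk2g (0.999). For the plasma membrane genes it was Bcat2 for Trpm7 (0.958), Mettl7a2 for Cacna1h (0.994), Rab3b for Orai1 (0.982) and Ist1 for Stim1 (0.941). The second was Uso1 for Itpr1 (0.985), Lman2 for Itpr2 (0.990), Cry1 for Atp2a2 (0.998) and Pigm for Camk2g (0.999). For the others the second was Tma7 for Trpm7 (0.876), Bcr for Cacna1h (0.994), Ptbp3 for Orai1 (0.977) and Polr2h for Stim1 (0.936). Among the members themselves, Atp2a2 and Camk2g had an r of 0.979 and Camk2g and Cacna1h one of 0.967, while Itpr1 and Itpr2 had 0.352.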

How the data were processed

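The authors deposited raw read counts for each gene symbol, as whole numbers and not normalised. Per the labels' protocols, cDNA was made with the SMART-Seq v4 kit from pools of about 20 oocytes, and 200 pg went into Nextera XT libraries. The submitters' processing notes name mm10, RSEM 1.3.1, STAR 2.7.3 and Trim Galore 0.6.4; the sources used here do not give their roles or the annotation.

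The analysis used edgeR 4.0.16 in R 4.3.3: filterByExpr by group (16847 genes), TMM scaling, 4 group means over all 8 libraries, and the robust quasi-likelihood test with Benjamini-Hochberg adjustment over all genes tested. Genes at an adjusted p under 0.05 are called. Each SE is the size of the log2 fold change divided by the square root of the test's F statistic. The contrasts were each mutant minus its own controls and the difference between these effects. Residual degrees of freedom were 4, so precision rests on spread shared across genes. The code was tested on simulated data.

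The members and gene lists were chosen with earlier results of these data known. From each list up to 2 called genes per comparison with the smallest p, at 5 CPM or more, were named. Of the genes named by these rules, 2 are not reported here. Patterns were ranked among genes at a mean of 10 CPM or more (prior count 2). Mcub was not matched, and Ero1a was matched as Ero1l.

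Alternatives were other scalings (RLE, library size), no low-count filter, DESeq2 1.42.0, limma 3.58.1 voom, each line alone, the replicate number as a block, and each library left out. Lengths and positions came from GENCODE M21.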

Additional observations from a re-analysis of the deposited data

Results flagged for a closer look

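The change of Itpr1 differed between the lines by the test of the difference itself: the effect under the DKO label minus the effect in Mll2 KO was 1.07 on the log2 scale (edgeR adjusted p 0.000532). Its transcripts were higher in 2 of 2 libraries labelled DKO than in both of their controls. They were lower in 2 of 2 Mll2 KO libraries than in both WT libraries. Libraries did not overlap for 70.3% of all genes tested in the H2A.Z line and 64.2% in the Mll2 line. The mutants were near in level (51.7 and 47.9 CPM under the DKO label, 51.6 and 56.0 CPM in Mll2 KO). The Mll2 WT mean was 2.27 times that of the H2A.Z controls, and line and any batch cannot be told apart. The Mll2 KO call itself was lost in some alternative fits, among them library size scaling and each line fitted alone. The difference was called in all 14 alternative fits.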

How the results depend on the processing

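Itpr1 and Itpr2 under the DKO label, Itpr2 in Mll2 KO, Atp2a2 in both mutants and the difference between the lines for Itpr1 kept their direction and call in every alternative run. The other members' tests that lost or gained a call are given in the report. Over members and alternatives, 112 of the fits under the DKO label kept direction and call, 4 lost the call, 1 gained it and 3 reversed, in Mll2 KO these numbers were 108, 4, 2 and 6, and for the difference between the lines 101, 0, 1 and 10. The reversals were of values that were not called. With RLE scaling and with DESeq2 the difference between the lines for Atp2a2 was -0.00403 and -0.00413. With library size scaling it was -0.18, with -0.11 for Itpr2 and -0.028 for Camk2g, and Cacna1h in Mll2 KO was 0.015. Leaving out each library gave differences between the lines of -0.28 to 0.23 for Atp2a2, -0.072 to 0.31 for Camk2g and -0.15 to 0.23 for Itpr2. In Mll2 KO it gave -0.33 to 0.064 for Cacna1h, -0.11 to 0.27 for Camk2g, -0.051 to 0.12 for Orai1 and -0.024 to 1.05 for Stim1. Under the DKO label it gave -0.28 to 0.10 for Stim1 and -0.21 to 0.15 for Trpm7. The cause was not tested.

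The count of members lower in Mll2 KO was 0 with library size scaling and with each line alone, and 0 to 1 over the libraries left out. Members higher in Mll2 KO were 2 to 4 (4 without Mll2 KO replicate 1), and members lower in the difference between the lines 0 to 1. Of the wider genes, library size scaling gave 14 higher in Mll2 KO, 10 lower under the DKO label, and 6 higher and 7 lower in the difference. Over all 16847 genes that scaling gave 3418, 2467, 1096 and 1866 in that order, against 2428, 1929, 2165 and 1126 with TMM scaling. RLE scaling and DESeq2 each gave 5 lower in the difference, with 1266 and 1193 lower over all genes. Each line alone gave 15 lower under the DKO label, with 3485 lower of all 15721 genes tested there. Leaving out 1 library moved the counts over all genes as well. Leaving out each library gave 5 to 16 higher under the DKO label (8, 5, 9, 7 and 9 without H2A.Z control 1, control 2, DKO 1, DKO 2 and Mll2 WT 2). It gave 2 to 14 lower there (2, 3 and 2 without H2A.Z control 1, control 2 and DKO 2, and 14 without either Mll2 KO library). In Mll2 KO it gave 5 to 15 higher and 7 to 13 lower, and in the difference 5 to 14 higher and 0 to 9 lower.

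Same-numbered libraries did not deviate together, with a correlation across genes of 0.04 in the H2A.Z line and -0.022 in the Mll2 line, so the numbers were not taken as pairs. With the replicate block, 3 wider genes were lower under the DKO label in place of 5; the calls lost among the genes named were Saraf (-0.28, edgeR adjusted p 0.0651) and Cacna2d1 (-0.85, edgeR adjusted p 0.0539). With 2 libraries a group, depth limits Stim1 most, at 14 to 44 counts. With the median in place of the longest transcript length, an alternative chosen after seeing the data, the mean share of Camk2g in its family was 98.9% in place of 99.3%.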
